A study of Mus musculus with 6 samples.

Results

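Growing axons find their targets by reading secreted and membrane-bound cues, and the axon guidance ligands and receptors are the families that carry this signal. Netrins act through Dcc and the Unc5 receptors, Slits through Robo receptors, semaphorins mainly through plexins with neuropilins as co-receptors for most class 3 members, and ephrins through Eph receptor tyrosine kinases. In the rodent hypothalamus the projections of arcuate neurons are still growing in the first weeks after birth, and the same families continue to act at synapses, vessels and glia. The genes described here were all those whose symbol on the array belonged to these families: class 3 to 7 semaphorins, plexins, neuropilins, netrins and netrin-G, Slits, Robos, Eph receptors, ephrins, Dcc and Unc5. Membership went by symbol alone, but the list was drawn up with earlier results of these data known. The members comprised 157 probe sets of 70 genes, of 45037 probe sets and 18193 genes on the array. Of these genes, 37 encode ligands and 33 receptors.

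The arrays compared microdissected arcuate hypothalamus of POMCDicerKO mice, whose Pomc-expressing cells lack Dicer, the enzyme that makes mature microRNAs, with that of control mice. There were 3 POMCDicerKO samples and 3 controls, described as independent, all from mice aged 2 weeks on a mixed C57Bl/6J, FVB/N and 129 background that both groups shared. No label gives the full genotype of the controls, the driver of the deletion or whether animals were pooled for a sample. Values are log2 expression per probe set, so a difference of 1 is a doubling, and a probe set's level depends on its probes as well as its transcript, so levels of different genes are not set against each other.

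Of 10 listed arcuate neuron markers 8 were measured, and all 8 were lower in POMCDicerKO (median -0.30, 0 past the adjusted threshold). The smallest differences were those of Tac2 (-0.024) and Th (-0.034). The groups overlapped in the mean over the list, with POMCDicerKO array 2 (8.82) above control 1 (8.72). Pomc (1433800_a_at) read 9.35, 9.71 and 9.43 on the POMCDicerKO arrays and 9.94, 10.87 and 9.76 on the controls, a log2 fold change of -0.69 (SE 0.27; limma adjusted p = 1). Dicer1 (1460571_at) averaged 9.23 ± 0.082 in POMCDicerKO and 9.21 ± 0.032 in controls (SD, n = 3 each); the deleted cells are a small part of the tissue, so this value does not check the labels. Array medians lay between 6.01 and 6.05. The arrays differed in cell type markers: over 11 meningeal and fibroblast genes, all lower in POMCDicerKO (median -0.84), the mean level was 6.80, 6.51 and 6.16 in POMCDicerKO and 8.02, 8.03 and 6.59 in controls, so that control 3 lay close to the POMCDicerKO arrays. Over 11 myelin genes it was 11.0, 10.34 and 10.61 in POMCDicerKO and 10.34, 10.09 and 10.22 in controls, with POMCDicerKO array 1 the highest. Further lists were 7 oligodendrocyte precursor genes (2 higher), 10 microglial (9 higher), 7 astrocyte (4 higher), 7 pan-neuronal (3 higher) and 3 erythroid genes (0 higher). The myelin list held 12 genes and the erythroid list 5, of which 11 and 3 were measured. No list had a gene past the adjusted threshold (0 in each). By limma, 6 of the 11 meningeal and 8 of the 11 myelin genes had an unadjusted p under 0.05, against 2.41% of all genes. So did 2 arcuate neuron, 1 endothelial and 1 erythroid gene. The lists were chosen with earlier results of these data known, and the genes of a list share the arrays. These counts are therefore description only.

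Some guidance genes also carry a microRNA. Slit2 and Slit3 each host a copy of miR-218 on their own strand, and Robo1 and Robo2, the receptors of Slit, have been reported as miR-218 targets in human cells and in zebrafish. The mature sequences are shown because Dicer cuts them from hairpins that derive from these host transcripts. They are from RefSeq (GRCm38.p6), written 5′ to 3′, with the seed (bases 2 to 8) in capitals. The -5p strand was the same from both hosts, while the -3p strands have different seeds. The first 2 lines below come from Slit2, at chr5:48223966-48223986 and chr5:48224005-48224026 on the plus strand, and the last from Slit3, at chr11:35616882-35616903 on the plus strand; the Slit3 copy of the -5p strand lies at chr11:35616840-35616860.
mmu-miR-218-5p: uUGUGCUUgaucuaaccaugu
mmu-miR-218-1-3p: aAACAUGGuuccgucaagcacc
mmu-miR-218-2-3p: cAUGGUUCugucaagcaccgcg
Mature microRNAs were not analysed here, so only the host and target transcripts below were measured.

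No guidance gene passed the test of POMCDicerKO against control tissue. By limma, with p-values adjusted over all probe sets (Benjamini-Hochberg), 0 of 157 probe sets passed an adjusted p of 0.05, as did 0% of all probe sets, and every member had an adjusted p of 1. At an unadjusted p under 0.05 there were 2 members, Unc5a and a probe set of Plxna3, both lower in POMCDicerKO. That is 1.27% of the members, against 2.44% of all probe sets. The POMCDicerKO and control values did not overlap at 9 members (5.73%), against 6.36% of all probe sets. Of these, 4 were higher and 5 lower in POMCDicerKO, where 3.14% and 3.22% of all probe sets were. Both shares are close to the background or below it. With 3 against 3 samples the two-sided exact permutation test of 1 probe set cannot go below p = 0.1. The count at an unadjusted p under 0.05 was 0 without control 2 and 7 without control 1. Over all probe sets the shares were 1.94% without control 2 and 4.61% without control 1. The adjusted count stayed at 0 without any single array. A further fit left out controls 1 and 2 together, which leaves control 3 alone. Its spread came from the 3 POMCDicerKO arrays, and the lone control was assumed to vary like them. Only the differences and the count without overlap of this fit are therefore given. In such bulk tissue fewer cells of a type and less RNA per cell cannot be told apart.

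The differences were small in size. Taking for each gene the probe set with the highest mean, 27 of the 70 genes were higher and 43 lower in POMCDicerKO. Their median log2 fold change was -0.028, against -0.0099 over all genes, of which 55.1% were lower. No member reached 1.5-fold, and the values ran from -0.40 for Epha3 to 0.21 for Epha7. For 67 of the 70 genes (95.7%) the 95% interval of the log2 fold change lay inside a 1.5-fold change in either direction, against 97.2% of all genes. The other 3 were Sema3e, Epha3 and Epha7, where the spread between samples was wide. The intervals were taken for each gene alone. The median residual SD between samples of 1 group was 0.154 over guidance genes, against 0.099 over all genes, and among genes with a mean of at least 6 it was 0.142 against 0.098. The ligands had a median log2 fold change of -0.036 and the receptors of -0.013. With single arrays left out the ligand median ran from -0.042 to -0.014, the value without POMCDicerKO array 3 (-0.015 without control 2). The receptor median ran from -0.049 without POMCDicerKO array 1 to 0.011 without POMCDicerKO array 3, and was also positive without POMCDicerKO array 2 (0.0063). When each gene was given by the average of its probe sets in place of the brightest, the median of the 70 genes was 0.0070, that of the ligands 0.0076 and that of the receptors 0.0064.

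**Figure D1:**
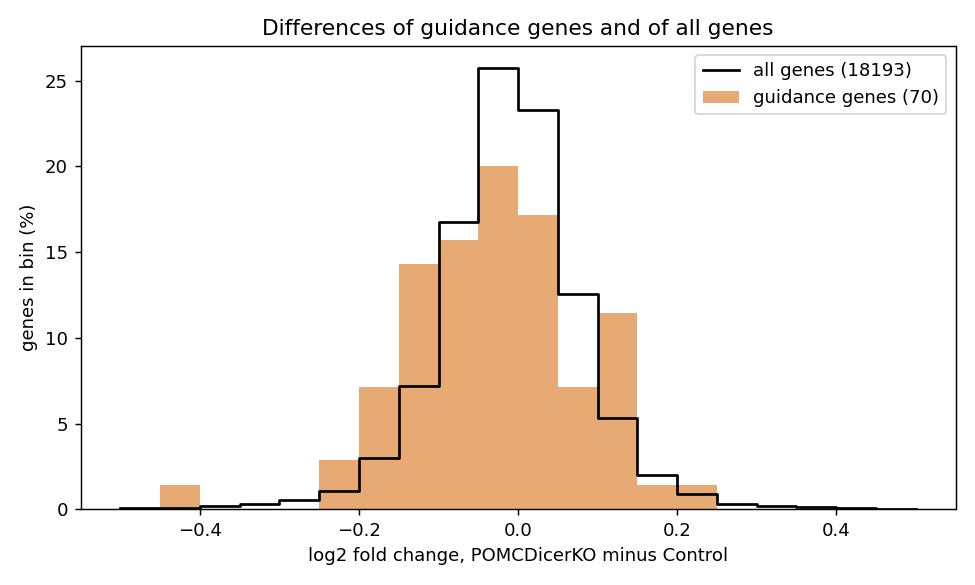
Share of genes (vertical axis, %) by log2 fold change, POMCDicerKO minus Control (horizontal axis, bins of 0.05), for the 70 guidance genes (bars) and all 18193 genes (line); 0.368% of all genes lie beyond 0.5 and are not drawn. Both centre near 0, and 60% of guidance genes against 78.3% of all genes lie within 0.1 of it.

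**Figure D2:**
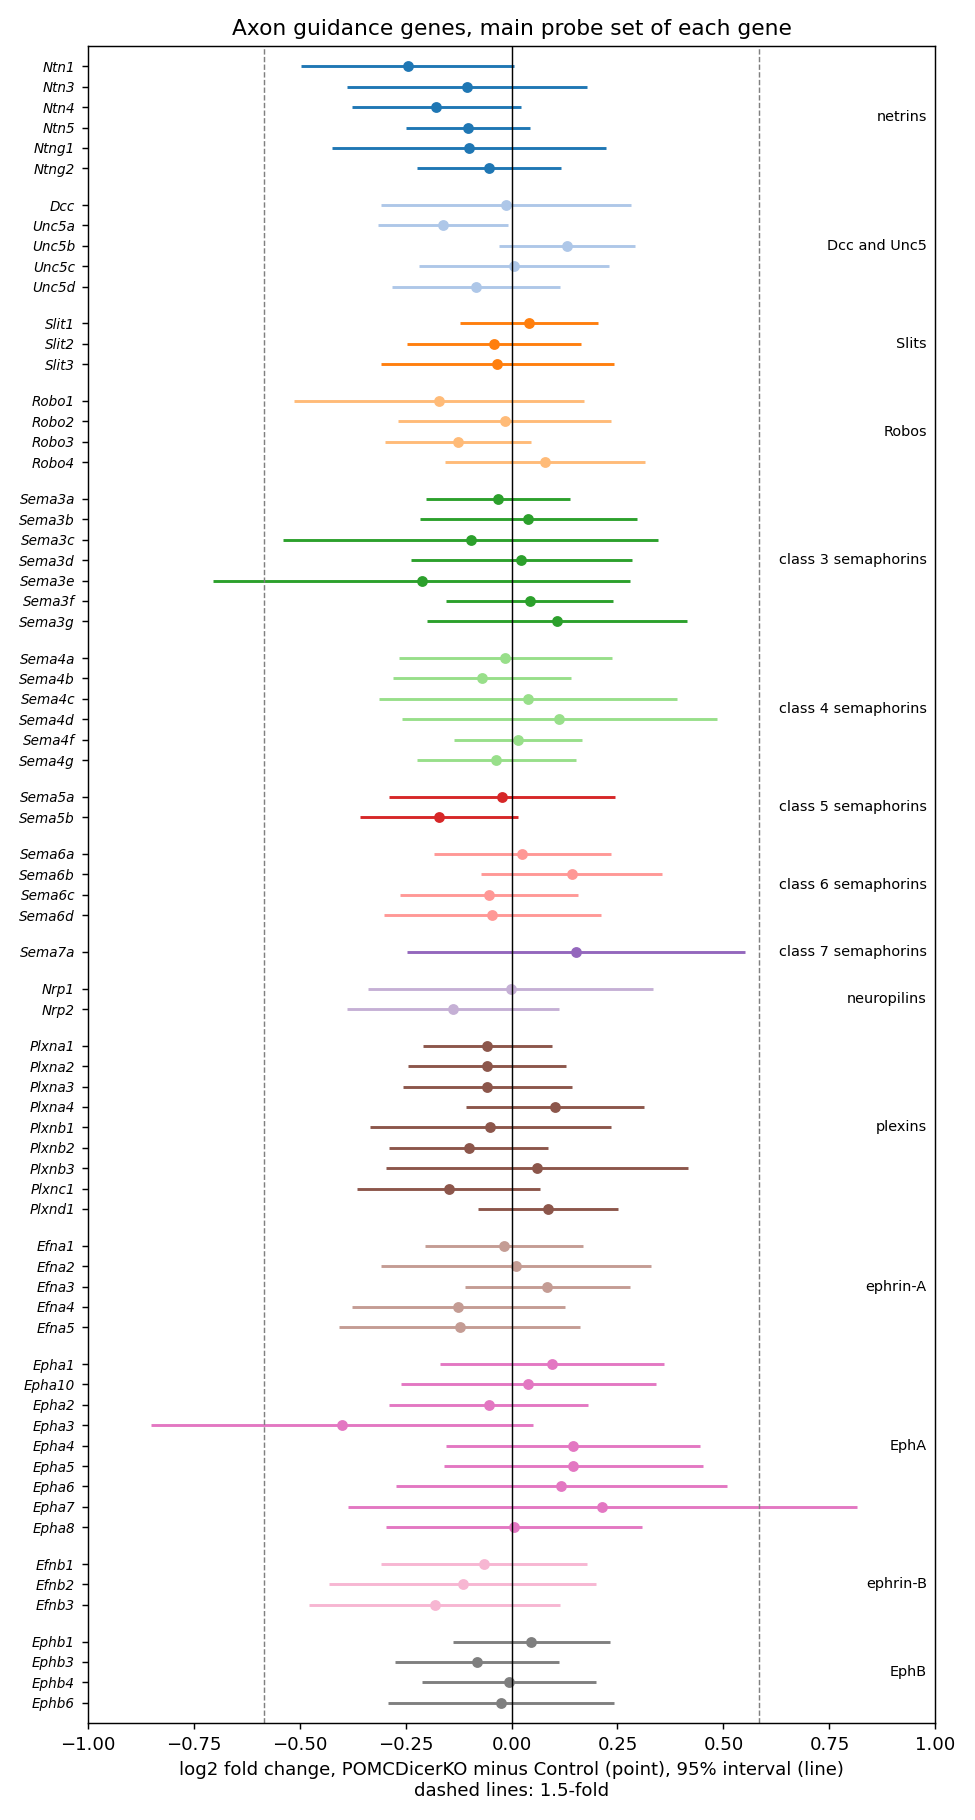
Log2 fold change (point) with limma's 95% interval (line) for the main probe set of each guidance gene, POMCDicerKO minus Control, grouped by family; dashed lines mark 1.5-fold. Only the intervals of Sema3e, Epha3 and Epha7 cross a dashed line.

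Among the netrins, secreted laminin-related cues, and the membrane-anchored netrin-Gs, 6 of 6 main probe sets were lower in POMCDicerKO at a median of -0.10; none passed. Their mean level relative to the control mean was -0.098, -0.13 and -0.17 on the POMCDicerKO arrays and 0.026, -0.0082 and -0.018 on the controls, so the groups did not overlap. This was 1 of the 15 families (6.67%). The 6.36% given above is for single probe sets and not for means over genes, so it is not a like measure. Without POMCDicerKO array 3 or without control 1, 5 of 6 genes were lower, and with control 3 as the only control 4 of 6. Over all their probe sets 7 of 12 were lower, and the other 5 were higher. When each gene was given by the average of its probe sets, 4 of 6 were lower and the family median was -0.058.

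Ntn1, the classic attractant and repellent cue, read 7.99, 7.84 and 7.59 in POMCDicerKO and 8.13, 8.05 and 7.97 in controls. POMCDicerKO array 1 lay above control 3, so the groups overlapped. The log2 fold change was -0.25 (SE 0.11; adjusted p = 1), and a second, dimmer probe set gave 0.13. Ntn4, a netrin of basement membranes, read 7.76, 7.79 and 7.66 in POMCDicerKO and 7.81, 7.85 and 8.07 in controls. The groups did not overlap, but the nearest samples were close (log2 fold change -0.18, SE 0.086; adjusted p = 1). A second, dimmer Ntn4 probe set gave 0.055. Ntn5, named here after its values were seen, was also lower without overlap, at 6.33 ± 0.036 in POMCDicerKO and 6.43 ± 0.049 in controls (SD, n = 3 each). Ntng1, the ligand of the synaptic adhesion protein NGL-1, averaged 8.74 ± 0.22 in POMCDicerKO and 8.84 ± 0.21 in controls (SD, n = 3 each), and its difference of -0.10 turned to 0.023 without POMCDicerKO array 3 and 0.022 without control 1. Its 4 probe sets ran from -0.10 to 0.29.

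Among the netrin receptors, Unc5a and Unc5b pointed in opposite directions. Unc5a, a receptor of repulsion and a dependence receptor, read 6.99, 6.90 and 7.04 in POMCDicerKO and 7.15, 7.17 and 7.10 in controls. All POMCDicerKO values lay below all controls, with a log2 fold change of -0.16 (SE 0.066; unadjusted p = 0.0406, adjusted p = 1), and it ran from -0.19 to -0.13 with single arrays left out. Unc5b, which is also expressed by endothelial cells, read 7.37, 7.22 and 7.28 in POMCDicerKO and 7.13, 7.22 and 7.13 in controls. The groups did not overlap, though POMCDicerKO array 2 and control 2 were nearly equal (log2 fold change 0.13, SE 0.069; adjusted p = 1). A second Unc5b probe set gave 0.052 with overlap. The endothelial and pericyte markers averaged 8.01, 7.88 and 8.05 in POMCDicerKO and 7.99, 7.98 and 7.88 in controls, 6 of 10 higher; their part in the Unc5b value was not tested. Unc5d averaged 9.68 ± 0.14 in POMCDicerKO and 9.77 ± 0.040 in controls, and Dcc, the receptor of attraction, 8.63 ± 0.22 and 8.65 ± 0.16 (SD, n = 3 each). The intervals were -0.28 to 0.11 for Unc5d and -0.31 to 0.28 for Dcc. Without POMCDicerKO array 1 the difference of -0.084 for Unc5d was -0.0055.

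**Figure D3:**
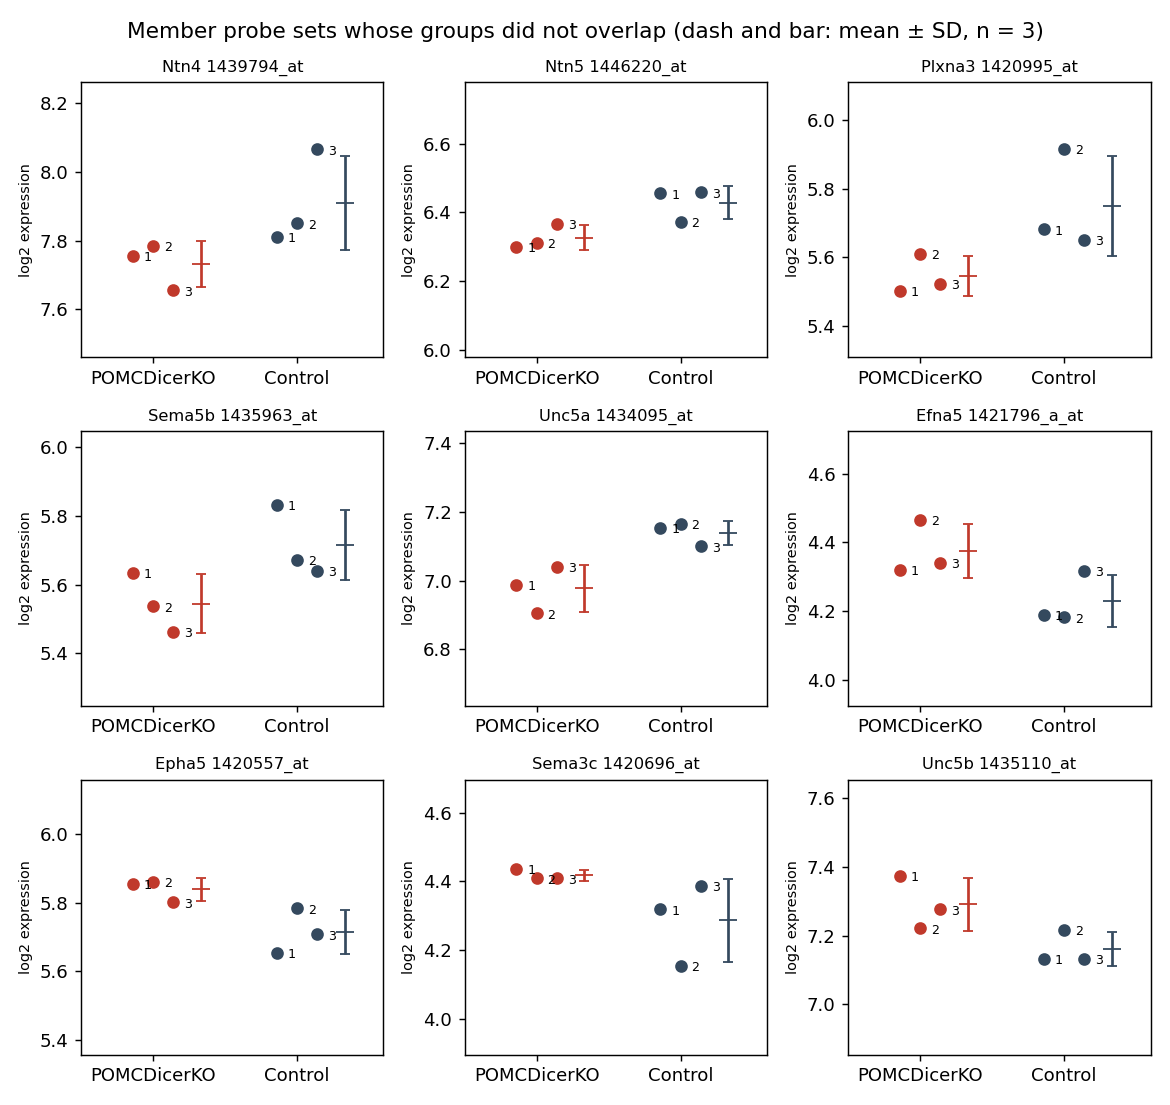
Log2 expression (vertical axes, each spanning 0.8) of the 9 probe sets whose groups did not overlap, POMCDicerKO left of Control; points are arrays numbered by replicate, and the dash and bar beside them give mean ± SD (n = 3). The first 5 panels are lower and the last 4 higher in POMCDicerKO, by 0.10 to 0.20 in size.

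Slits, large secreted repellents, and their Robo receptors gave no probe set without overlap. Slit2 (1424659_at), host of one miR-218 copy, read 10.28, 10.58 and 10.47 in POMCDicerKO and 10.44, 10.55 and 10.47 in controls. The control values lay within the range of the POMCDicerKO values, and the 95% interval of the log2 fold change was -0.25 to 0.16. Its other probe sets gave 0.26 (interval -0.21 to 0.74) and -0.018. Slit3, host of the other copy, read 5.90, 6.17 and 6.23 in POMCDicerKO and 6.07, 6.01 and 6.33 in controls (interval -0.31 to 0.24). Both hosts turned positive without POMCDicerKO array 1, Slit2 at 0.040 and Slit3 at 0.066, and Slit3 also without control 3 (0.065). Slit1, which hosts no miR-218 copy, averaged 9.31 ± 0.060 in POMCDicerKO and 9.27 ± 0.076 in controls (SD, n = 3 each), and its difference was -0.0032 without control 1.

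Robo1, a Slit receptor of commissural and many other axons, read 8.36, 8.35 and 7.81 in POMCDicerKO and 8.27, 8.43 and 8.33 in controls. Only POMCDicerKO array 3 was low, and the log2 fold change of -0.17 (SE 0.15; adjusted p = 1) was 0.010 without it. Robo2, its close relative, averaged 5.49 ± 0.14 in POMCDicerKO and 5.50 ± 0.17 in controls (SD, n = 3 each), with an interval of -0.27 to 0.24, and its difference turned positive when 1 array was omitted (0.062 without POMCDicerKO array 3 and 0.059 without control 1). These 2 transcripts, reported targets of the seed shown above, were not detectably higher in POMCDicerKO tissue. The other Robo1 probe sets gave 0.025 and -0.041. Robo2 had 1 probe set, with a mean of 5.50, under the level of 6 used as a filter. The cells lacking Dicer are a small part of the tissue, so a rise within them could go unseen. Robo3, of midline crossing, was near the lower end of the scale, with 4.34 ± 0.097 in POMCDicerKO and 4.47 ± 0.055 in controls. Robo4, an endothelial receptor, was at 6.45 ± 0.13 in POMCDicerKO and 6.37 ± 0.15 in controls (SD, n = 3 each), and its difference was -0.0074 without control 1 and -0.048 with control 3 as the only control.

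Semaphorins, the largest ligand family, split evenly, with 10 of 20 genes higher and 10 lower in POMCDicerKO, and 0 passed. Sema3c, a secreted class 3 member, read 8.68, 8.14 and 7.96 in POMCDicerKO and 8.49, 8.10 and 8.49 in controls. Its samples spread widely in both groups, and the difference of -0.097 turned to 0.052 without POMCDicerKO array 3. A second Sema3c probe set, close to the lower end of the scale, was higher without overlap (4.42 ± 0.016 in POMCDicerKO, 4.29 ± 0.12 in controls; SD, n = 3 each). Sema3e, the ligand of Plxnd1, gave -0.21 with an interval of -0.70 to 0.28, and it was -0.40 without POMCDicerKO array 1, -0.084 without POMCDicerKO array 3, -0.37 without control 3, -0.022 without control 2 and 0.10 with control 3 as the only control. Sema3g, made by arterial endothelium, gave 0.11 (SE 0.13), and -0.0015 without control 3.

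Of the transmembrane class 4 members, Sema4d, the ligand of Plxnb1 that oligodendrocytes express, read 8.98, 8.64 and 8.36 in POMCDicerKO and 8.63, 8.67 and 8.34 in controls. POMCDicerKO array 1, which was also the highest for myelin genes, was the highest for Sema4d, and the log2 fold change of 0.11 was -0.046 without it. The other, dimmer Sema4d probe sets gave -0.00030 and -0.090. Plxnb3, a plexin of the oligodendrocyte lineage, was also highest on POMCDicerKO array 1, with 9.04, 8.57 and 8.45 in POMCDicerKO and 8.72, 8.69 and 8.46 in controls. The other arrays did not keep the myelin order. POMCDicerKO array 3 was second for myelin genes (10.61) but among the lowest for Sema4d and Plxnb3. The oligodendrocyte precursor genes averaged 9.90, 9.52 and 9.54 in POMCDicerKO and 9.68, 9.72 and 9.57 in controls, also highest on POMCDicerKO array 1. All 11 myelin markers were higher in POMCDicerKO (median 0.42). By limma 8 of them (72.7%) had an unadjusted p under 0.05, against 2.41% of all genes, and 0 passed the adjusted threshold. This share is a description, since the list was chosen with earlier results known and its genes share the arrays. The part of the myelin or precursor genes in the Sema4d and Plxnb3 values was not tested. Sema4b gave -0.069, and 0.0048 without POMCDicerKO array 1. Sema4f gave 0.015, and it was of the other sign without control 1 (-0.0051), without control 2 (-0.0020) and with control 3 as the only control (-0.060).

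Sema5b, a transmembrane repellent with thrombospondin repeats, was lower on all POMCDicerKO arrays, at 5.64, 5.54 and 5.46, against 5.83, 5.67 and 5.64 in controls. POMCDicerKO array 1 and control 3 were nearly equal (log2 fold change -0.17, SE 0.080; adjusted p = 1). A second Sema5b probe set gave -0.18 with overlap. Its relative Sema5a gave -0.023 at its main probe set and 0.29 at another, and the main value changed sign when 1 array was omitted (0.028 without POMCDicerKO array 3, 0.044 without control 2 and 0.037 without control 3).

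Class 6 and 7 members showed the same overlap. Sema6b, a ligand of A-class plexins, averaged 6.52 ± 0.16 in POMCDicerKO and 6.38 ± 0.056 in controls (SD, n = 3 each). Sema6d gave -0.045 and turned to 0.067 without control 2, while Sema6c gave -0.054 and turned to 0.11 with control 3 as the only control. Their other, dimmer probe sets were all higher, at 0.038 to 0.10 for Sema6d and at 0.081 and 0.13 for Sema6c. Over class 6, 9 of 11 probe sets were higher, and the family median was 0.063 when a gene's probe sets were averaged. Sema7a, the membrane-anchored ligand of Plxnc1, read 8.31, 7.93 and 7.84 in POMCDicerKO and 8.18, 7.59 and 7.85 in controls, a difference of 0.15 with an interval of -0.25 to 0.55. Its high samples were POMCDicerKO array 1 and control 1, and the difference was 0.0092 without POMCDicerKO array 1, 0.011 without control 2 and 0.31 without control 1.

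No plexin or neuropilin gene passed. Among 9 plexins 3 were higher and 6 lower, with a median of -0.057, and the 95% intervals of all 9 lay within 1.5-fold. Plxna3, which with neuropilins transduces class 3 semaphorins, was lower without overlap at its dimmer probe set (1420995_at), with 5.50, 5.61 and 5.52 in POMCDicerKO and 5.68, 5.92 and 5.65 in controls. The log2 fold change was -0.20 (SE 0.087; unadjusted p = 0.0479, adjusted p = 1). Its brighter probe set (1420996_at) gave -0.057 with overlap, at 8.01 ± 0.048 in POMCDicerKO and 8.07 ± 0.14 in controls (SD, n = 3 each). Plxnc1, the Sema7a receptor, read 10.43, 10.73 and 10.61 in POMCDicerKO and 10.67, 10.84 and 10.71 in controls, a difference of -0.15 (SE 0.093). Plxnb2 gave -0.10 (SE 0.081), and Plxnd1, the receptor of Sema3e, 0.087 (SE 0.071).

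Nrp1, the co-receptor of Sema3a and of vascular endothelial growth factor, averaged 9.77 ± 0.24 in POMCDicerKO and 9.77 ± 0.21 in controls (SD, n = 3 each). The spread lay within the groups, since POMCDicerKO array 3 (9.50) and control 3 (9.54) were both low. Its log2 fold change of -0.0018 took either sign when 1 array was omitted, up to 0.14 without POMCDicerKO array 3, and was 0.23 with control 3 as the only control. Nrp2, the co-receptor of Sema3f, gave -0.14 (SE 0.11), and 0.024 with control 3 as the only control.

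Eph receptors and ephrins signal between touching cells in both directions, with ephrin-A ligands held by a lipid anchor and ephrin-B ligands crossing the membrane. Of the 9 EphA genes 7 were higher in POMCDicerKO, with a median of 0.095, and 20 of 24 EphA probe sets were higher; none passed. POMCDicerKO array 1 was the high one, with the family at 0.18 relative to the control mean, against -0.020 and -0.060 on the other 2 POMCDicerKO arrays and -0.051 to 0.031 on the controls. Without that array the family median was -0.0036, and without control 2 it was 0.023. All 5 probe sets of Epha4, a receptor of both ephrin classes, were higher (0.11 to 0.19), as were all 4 of Epha5 and all 4 of Epha7. Probe sets of 1 gene share the arrays and so are not independent.

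Epha5 (1437920_at), an ephrin-A receptor of forebrain axons, read 9.85, 9.44 and 9.36 in POMCDicerKO and 9.52, 9.33 and 9.35 in controls. POMCDicerKO array 1 stood above the rest, and the log2 fold change of 0.15 was -0.0036 without it. A dimmer Epha5 probe set (1420557_at) was higher without overlap, with 5.85, 5.86 and 5.80 in POMCDicerKO and 5.65, 5.78 and 5.71 in controls (0.12, SE 0.065; adjusted p = 1). Epha4 (1429021_at) read 9.11, 8.89 and 8.72 in POMCDicerKO and 8.93, 8.54 and 8.82 in controls. Epha7 had the widest spread, with 7.48, 6.96 and 6.28 in POMCDicerKO around 6.69, 6.63 and 6.75 in controls. Epha3 went the other way, with 5.11, 4.46 and 4.32 in POMCDicerKO and 5.18, 5.04 and 4.88 in controls, a difference of -0.40 (SE 0.19; adjusted p = 1) that was -0.25 without POMCDicerKO array 3 and -0.64 without POMCDicerKO array 1. Epha3 was measured near the lower end of the scale, with a mean of 4.83. Its other 3 probe sets lay within 0.033 of the control level. They were dimmer still, with means of 3.46 to 3.69, so they bear little on the main value.

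The ephrin-B genes were all lower at their main probe sets, with a median of -0.12, as were all 8 of their probe sets; none passed and none was free of overlap. Relative to the control mean, POMCDicerKO arrays 1 and 3 lay at -0.22 and -0.26, but array 2 lay at 0.11, and the controls at -0.0062, 0.12 and -0.11. The family median was -0.014 without POMCDicerKO array 3, where 2 of 3 genes were lower, -0.26 without POMCDicerKO array 2, -0.076 without control 1, -0.052 without control 2 and -0.0054 with control 3 as the only control. Efnb3, an ephrin of midline guidance, read 9.74, 10.03 and 9.81 in POMCDicerKO and 9.93, 10.30 and 9.89 in controls (-0.18, SE 0.13). Efnb2, an ephrin of neurons and arterial endothelium, read 9.13, 9.48 and 8.93 in POMCDicerKO and 9.38, 9.33 and 9.19 in controls, and its difference of -0.12 turned to 0.0099 without POMCDicerKO array 3. Efnb1 gave -0.066, and 0.012 with control 3 as the only control. Tanycyte and ependymal markers were also highest on array 2 of each group. They lay at -0.22, 0.13 and -0.14 relative to the control mean, with controls at -0.18, 0.27 and -0.097. The arcuate neuron markers were likewise highest on array 2, at -0.60, -0.10 and -0.29, with controls at -0.21, 0.28 and -0.073. The rest of the order differed: array 1 of each group was the lowest for both lists, and array 3 for ephrin-B. The part of either list in the ephrin-B values was not tested.

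Ephrin-A genes and EphB receptors were mixed. Efna5, an ephrin of topographic mapping, was lower at its main probe set (9.16 ± 0.18 in POMCDicerKO, 9.28 ± 0.19 in controls) and higher without overlap at a dim one (4.38 ± 0.079 in POMCDicerKO, 4.23 ± 0.077 in controls; SD, n = 3 each). The main difference of -0.12 was -0.015 without control 2 and -0.024 without POMCDicerKO array 1. Efna3 gave 0.084 (SE 0.084) and Efna4 -0.13 (SE 0.11). Ephb1, an axonal receptor known from the optic chiasm, gave 0.047, and -0.024 without POMCDicerKO array 1. Ephb3 gave -0.082 (SE 0.083). Ephb6, a receptor without kinase activity, gave -0.025 and was of the other sign without POMCDicerKO array 2 (0.0063), POMCDicerKO array 3 (0.069) or control 3 (0.0031).

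**Figure D4:**
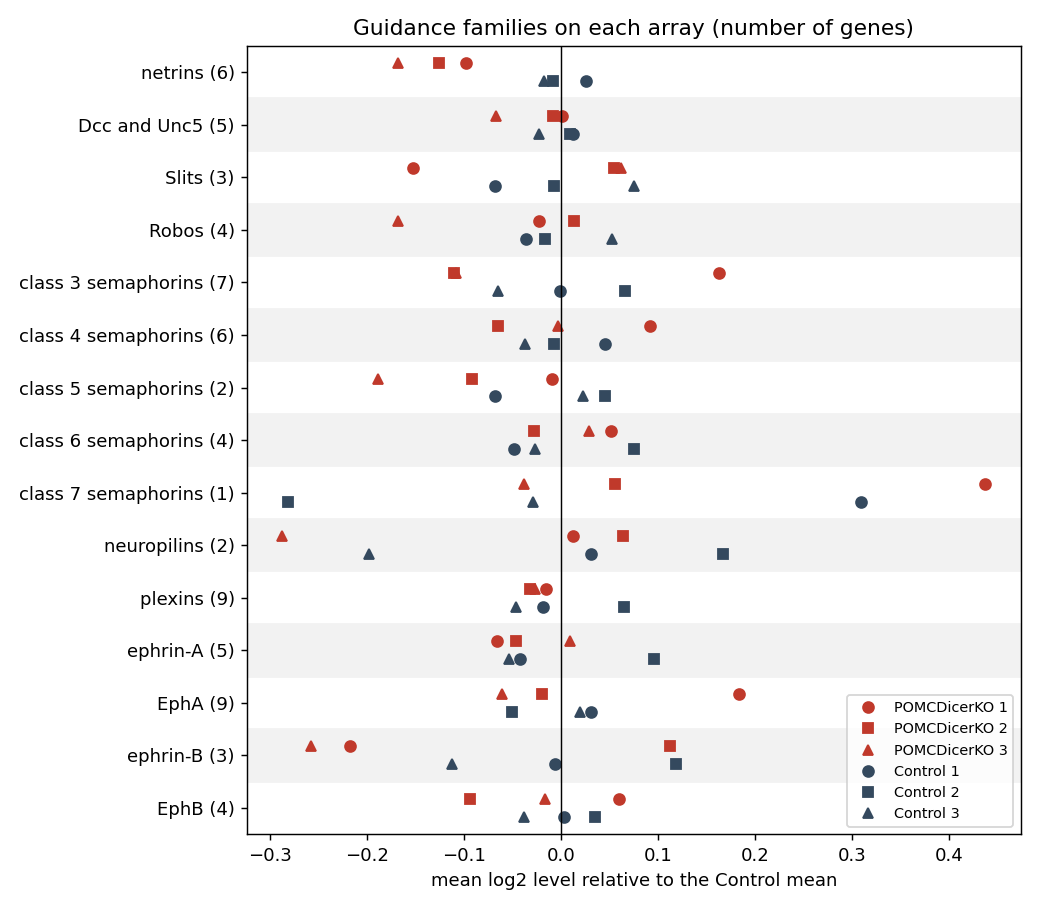
Mean log2 level of each guidance family on each array relative to the control mean (horizontal axis), with POMCDicerKO points above Control points in each row and the number of genes in brackets. The netrins on the POMCDicerKO arrays lie at -0.17 to -0.098, below all controls, while EphA is high on POMCDicerKO array 1 alone (0.18) and ephrin-B lies at -0.22 and -0.26 on POMCDicerKO arrays 1 and 3, at 0.11 on POMCDicerKO array 2 and at -0.11 on control 3.

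Over the 70 genes, single arrays differed as much as the groups did. Control 2 held the highest value of 20 genes and POMCDicerKO array 1 that of 19, and each of the other arrays that of 7 or 8. POMCDicerKO array 3 held the lowest value of 21 genes and the others that of 8 to 13. The mean over all guidance genes relative to the control mean was 0.028, -0.037 and -0.072 on the POMCDicerKO arrays and 0.00097, 0.027 and -0.028 on the controls, so the groups overlapped. Of 47 genes with more than 1 probe set, all probe sets were higher for 13, all lower for 7, and of both signs for 27.

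Other genes of the pathway gave no call either. Of 22 co-receptors and further cues, such as Neo1 and L1cam, 8 were higher and 14 lower (median -0.017), with 0 past the adjusted threshold and 0 at an unadjusted p under 0.05. The Hedgehog co-receptor Boc was at -0.17 (SE 0.10), Islr2, a neuronal membrane protein of axon growth, at 0.13 (SE 0.093), and the Unc5 ligand Flrt3 at -0.11 (SE 0.083). Of 43 measured intracellular signalling genes 17 were higher and 26 lower (median -0.012), again with 0 at an unadjusted p under 0.05. Farp1, an exchange factor linked to class A plexins, read 8.62, 8.72 and 8.81 in POMCDicerKO and 8.72, 8.98 and 8.99 in controls (-0.18, SE 0.094). Ngef, the exchange factor ephexin downstream of EphA receptors, was at -0.10 (SE 0.065), and the actin-binding Ablim3 at -0.21 (SE 0.14).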

How the data were processed

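The authors deposited 1 log2 expression value for each probe set and array of Affymetrix Mouse Genome 430 2.0 arrays, made with RMA and the affy package per the submitters' processing notes (versions not stated). RMA equalises the arrays, so a shift shared by most transcripts was removed before deposit. The 6 columns were used as deposited, with 0 unused. Of the probe sets 64 controls were left out and 45037 tested. The platform annotation gave 1 symbol to 34945, several to 932, and did not list 9160. All 157 members matched RefSeq by Entrez identifier.

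The groups were compared with limma 3.58.1 in R 4.3.3 over all probe sets, with Benjamini-Hochberg adjustment and a 0.05 threshold. Log2 fold changes, POMCDicerKO minus control, carry limma's standard errors and 95% intervals. A gene's main probe set is that with the highest mean over the 6 arrays. The code was tested on simulated data. The number of arrays limits the precision.

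Members, gene lists and tests were chosen with earlier results of these data known. Named were, per family, the gene with the highest main probe set and up to 2 with the smallest p, probe sets with an unadjusted p under 0.05 and no overlap, Slit2, Slit3, Robo1, Robo2, Dicer1 and Pomc, and 3 genes of each pathway list; others were named after their values were seen. Marker lists covered meningeal, myelin, precursor, endothelial, microglial, astrocyte, tanycyte, neuronal, arcuate and erythroid cells. Alternatives were centring, quantile normalisation, a filter at a mean of 6, other probe set rules, other variance models, array weights, a replicate block and arrays left out. The labels give no batch, so none was tested.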

Additional observations from a re-analysis of the deposited data

How the results depend on the processing

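No member passed the adjusted threshold under any of the alternatives run, leaving aside the fit without controls 1 and 2 together. The count at an unadjusted p under 0.05 was 2 of 157 members, against 2.44% of all probe sets. It was 1 with quantile normalisation (2.50% of all), with array weights (2.83%) and, of 93, with a mean of at least 6 (1.88%). It was 0 with a trended robust prior (2.34% of all) and 6 with a replicate block (3.10%). With single arrays left out it ran from 0 to 7, against 1.94% to 4.61% of all probe sets. The count without overlap was 9 of 157 members (5.73%), against 6.36% of all probe sets. It was 5 of 157 with quantile normalisation, against 6.57% of all probe sets. With 1 probe set per gene it was 5 of 70 (7.14%), against 6.44% of all genes. Among probe sets with a mean of at least 6 it was 4 of 93, against 5.40% of all. It was 18 to 29 with single arrays left out and 66 without controls 1 and 2. Fewer samples overlap less by construction, and with these arrays left out the shares over all probe sets were 13.1% to 19.2% and 46.0%. The median over member genes (-0.028) was 0.0070 when a gene's probe sets were averaged, and -0.044 to -0.0042 with single arrays left out. Same-numbered samples deviated together weakly (correlations 0.13, 0.079 and 0.12), and each correlated best with its own number. The samples are described as independent, so the main fit did not take the numbers as pairs, while the replicate block did. Whether the numbers mark shared handling was not tested. Of 43 named probe sets, those whose sign turned with single arrays left out ran from -0.26 to 0.0099 for Efnb2, -0.0036 to 0.24 for Epha5, -0.024 to 0.10 for Ephb1, -0.15 to 0.069 for Ephb6, -0.12 to 0.14 for Nrp1, -0.18 to 0.023 for Ntng1, -0.26 to 0.010 for Robo1, -0.11 to 0.062 for Robo2, -0.0074 to 0.14 for Robo4, -0.31 to 0.052 for Sema3c, -0.0015 to 0.22 for Sema3g, -0.13 to 0.0048 for Sema4b, -0.046 to 0.26 for Sema4d, -0.0051 to 0.053 for Sema4f, -0.15 to 0.044 for Sema5a, -0.15 to 0.067 for Sema6d, -0.0032 to 0.070 for Slit1, -0.11 to 0.040 for Slit2 and -0.10 to 0.066 for Slit3. Others kept their sign but moved by over 1.5 times: they ran from 0.014 to 0.14 for Efna3, -0.23 to -0.051 for Efna4, -0.20 to -0.015 for Efna5, -0.18 to -0.0042 for Efnb1, -0.27 to -0.052 for Efnb3, -0.64 to -0.25 for Epha3, 0.034 to 0.24 for Epha4, -0.14 to -0.028 for Ephb3, -0.22 to -0.051 for Nrp2, -0.34 to -0.14 for Ntn1, -0.23 to -0.099 for Ntn4, -0.25 to -0.12 for Plxna3, -0.15 to -0.040 for Plxnb2, -0.22 to -0.067 for Plxnc1, 0.054 to 0.13 for Plxnd1, -0.40 to -0.022 for Sema3e, -0.22 to -0.11 for Sema5b, 0.052 to 0.21 for Sema6b, -0.13 to -0.0044 for Sema6c, 0.0092 to 0.31 for Sema7a and -0.15 to -0.0055 for Unc5d. Without controls 1 and 2 the sign turned for Efnb1 (0.012), Robo4 (-0.048), Sema4f (-0.060), Slit1 (-0.0031), Sema3e (0.10), Nrp1 (0.23), Ntng1 (0.031), Sema6c (0.11) and Nrp2 (0.024). It turned with quantile normalisation for Nrp1 (0.0033) and with array weights for Ephb6 (0.013), Sema5a (0.00034), Nrp1 (0.084) and Robo2 (0.015). The cause was not tested. Low values carry little signal over background, and 93 of the 157 had a mean of at least 6.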
